A study of Zea mays with 2 samples.

Results

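The transcripts described here gave a clear signal in stems of the maize dwarf mutant D11 and a signal no higher than background in stems of the wild type (WT). They were chosen by their measured values, as the maize probe sets with a signal of at least 150 in D11 and of at most 27.6 in WT. The ceiling of 27.6 is the highest WT signal among the 23 Tag and TrpnX control probe sets, which match no maize transcript. Of 17734 probe sets on the array, 113 AFFX and 66 reporter controls were set aside, and the rule found 43 of the remaining 17555 maize probe sets, or 0.245%, which stand for 39 genes. As these signals chose the members, the signals are a description and support nothing by themselves.

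Total RNA was taken from whole stems at tassel emergence and hybridized to the Affymetrix Maize Genome Array, with 1 array for D11 and 1 for WT. WT is the inbred line Mo17, and D11 carries a dominant dwarf factor that appeared in an F1 between Mo17 and line HN06 and was then backcrossed to Mo17, B73 and W22. The background of the D11 plants used for the array is not given in the sources used here, so an effect of D11 and a difference in background cannot be told apart. Neither stem had been treated. With 1 array per genotype there is no replicate check, no error can be given and no test was made, and precision is limited by the number of arrays.

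The values are MAS 5.0 signals, intensities in arbitrary units on a linear scale. A signal at the background ceiling says only that the transcript was not measured above it, so each fold change against WT is a lower bound. It is the D11 signal over 27.6 and is written as "at least". The bound takes the D11 signal as exact. In RNA of whole stems, fewer cells of a type and less RNA per cell cannot be told apart.

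Dwarf maize has short internodes, the stem segments whose length is set by cell division and by the later growth of each cell in a wall that must yield. Gibberellin is a hormone known to promote both steps. Wall proteins, aquaporins, auxin carriers and the machinery that builds the new wall between daughter cells can take part in stem growth. Transcripts of these kinds are among the members, but 22 of the 43 members have no described product. A role of any member in the growth of the D11 stem was not tested.

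The medians of all maize probe sets were 192 in D11 and 168 in WT, and the 63 bacterial spike probe sets differed by at most 1.38-fold between the arrays, but the 18S rRNA probe set had 2890 in D11 and 5872 in WT. Genes that mark a stem were measured in both samples. The secondary wall cellulose synthase gene cesa10 (LOC542685) had 2603 in D11 and 3579 in WT. For the 2-fold counts that follow, signals under the brightest Tag or TrpnX control of their array took that control's value. By this measure 5.47% of the 17555 maize probe sets lay 2-fold or more above WT in D11, and 3.14% as far below. The lists are short, and their counts were not tested against these shares. Of 11 probe sets for secondary walls, 1 was at least 2-fold higher in D11, cinnamoyl-CoA reductase with 1534 and 428, and 2 were lower, myb31 with 192 and 406 and myb42 with 54.6 and 126. Another reading of myb42 did not share this difference, with 31.4 in D11 and a background signal of 25.6 in WT. The shoot meristem gene kn1 (LOC542391) had 1762 and 1664. The chlorophyll-binding protein gene Cab-m7, a marker of green tissue, had 7115 and 7013. Of 21 photosynthetic probe sets 2 were at least 2-fold lower in D11, psbs1 with 524 and 1251 and 1 reading of Ppdk1 with 116 and 249. The brightest reading of Ppdk1 had 388 and 476, within 2-fold. With median centring or quantile normalization 4 of the 21 were at least 2-fold lower. Of 7 pollen probe sets, 2 were above the control level in either array and none differed 2-fold, though 2 were at least 2-fold lower in D11 with median centring or quantile normalization. Of 31 probe sets in a list of MADS genes drawn up for floral tissue, 14 were above background in at least 1 array. The list summed to 14482 in D11 and 8163 in WT. At least 2-fold higher in D11 were 4: m21 with 3007 and 48.1 and with 129 and 17.9, m26 with 2004 and 500, and m20 with 1533 and 214. At least 2-fold lower were 3: m31 with 59.0 and 685, M2 (AGAMOUS) with 19.9 and 107, and m5 with 11.1 and 81.4. Whether each gene of the list marks floral tissue was not checked, so the sum is no measure of floral tissue. The part of floral tissue in the members' signals was not tested.

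D11 signals of the members ran from 153 to 6405 with a median of 268, and 34 of the 43 were above the median of the D11 array. That median was 192 and the rule asked for at least 150, so the rule largely set this count. In all, 8 members had at least 1000. In WT they ran from 0.519 to 27.5 with a median of 17.0, and 33 lay above the median Tag or TrpnX control of 8.93, so most sat in the upper part of the background. The bounds ran from 5.55-fold to 232-fold with a median of 9.72-fold. They reached 10-fold for 21 members, 20-fold for 13, 50-fold for 5 and 100-fold for 4.

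**Figure D1:**
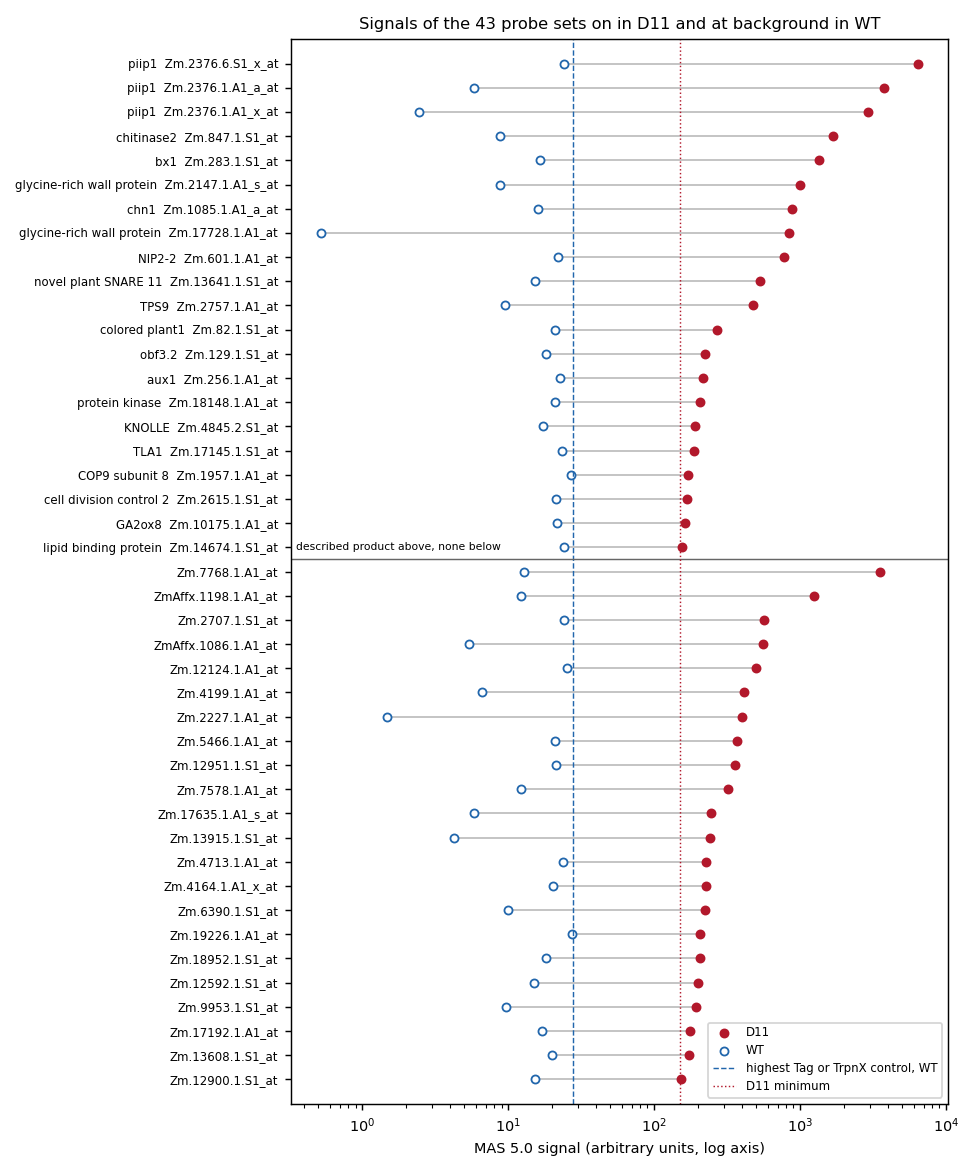
MAS 5.0 signal (log axis, arbitrary units) of each of the 43 members in D11 (filled) and WT (open), 1 array each, with the 21 members that have a described product above the line and the 22 without below it. The dashed line is the highest Tag or TrpnX control in WT (27.6) and the dotted line the D11 minimum (150). The 3 probe sets of piip1 and Zm.7768.1.A1_at are the farthest to the right.

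Most transcripts at background in WT were also at background in D11. In all, 4681 maize probe sets (26.7%) were at or below the WT ceiling. Their median in D11 was 11.6 and their 99th percentile 142, and 83.0% were at or below the highest Tag or TrpnX control of that array, 24.7. The members are 0.919% of these 4681 probe sets.

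The mirrored rule, a WT signal of at least 150 and a D11 signal of at most 24.7, found 5 probe sets (0.0285%), against 43 in the other direction. It found 5 as well under each of the 4 other scalings tried, where the rule for D11 found 38 to 42. These 5 had WT signals from 214 to 349, while 14 members had at least 500 in D11. Lowering the minimum to 50 gave 241 probe sets on in D11 alone and 58 on in WT alone. At 300 the counts were 21 and 2, and at 400 they were 17 and 0. The excess in D11 was thus found at every minimum from 50 to 5000, and from 400 upward no transcript was on in WT alone.

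**Figure D2:**
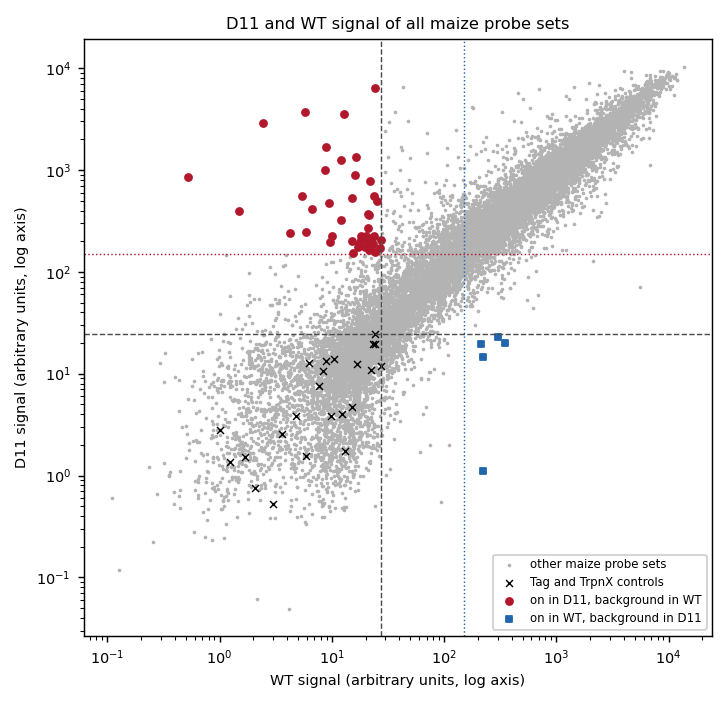
D11 signal against WT signal (both log axes, arbitrary units) for all maize probe sets and the 23 Tag and TrpnX controls. Dashed lines are the highest Tag or TrpnX control of each array and dotted lines the minimum of 150. The 43 members (red) reach 6405 in D11, and the 5 probe sets of the mirrored rule (blue) reach 349 in WT.

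**Figure D3:**
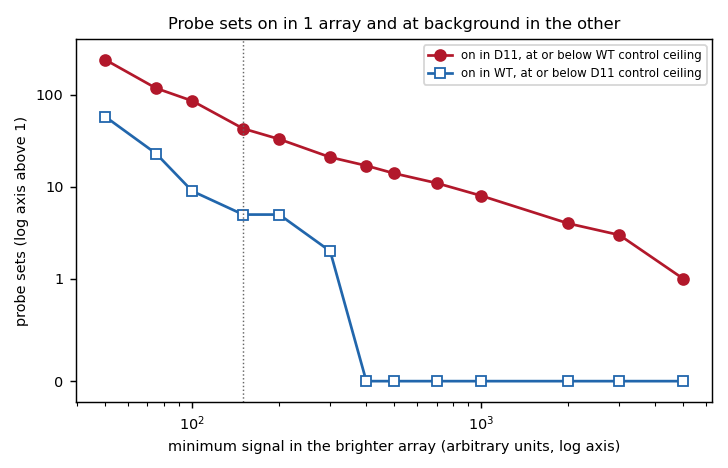
Number of maize probe sets (log axis above 1) on in 1 array and at or below the Tag and TrpnX maximum of the other, against the minimum signal asked of the brighter array (log axis, arbitrary units). The red line (D11 alone) falls from 241 to 1 and the blue line (WT alone) from 58 to 0, and the dotted line marks the minimum of 150.

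By annotated function, 21 members had a described product and fell into 8 groups. The group with the most members was cell wall and surface proteins, with 5 of 2 genes. A further 3 groups had 3 members each: transcription factors and developmental regulators, membrane channels, carriers and traffic, and specialized metabolism. Cell division, defence and signalling had 2 each, and lipid-binding proteins 1. The other 22 members had no described product.

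The gene piip1 (LOC542597, also IIG1), named for a physical impedance induced protein and annotated as a cortical cell-delineating protein precursor, held 3 of the 43 places. Cortical cell-delineating proteins are small proteins first described from the cortex of the maize root. Probe set Zm.2376.6.S1_x_at had 6405 in D11 and 24.2 in WT, at least 232-fold higher. Zm.2376.1.A1_a_at had 3748 and 5.79, at least 136-fold higher, and Zm.2376.1.A1_x_at had 2913 and 2.46, at least 105-fold higher. These probe sets share a transcript cluster, so they are repeated readings of related sequence and not separate genes. All have the suffix _x or _a, which marks probe sets that can bind several transcripts, as do 16.3% of the members and 12.5% of all maize probe sets.

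Other readings of piip1 did not share the difference. Zm.2376.7.A1_at, paired with the same gene symbol, had 457 in D11 and 407 in WT. Zm.2376.2.S1_at had 26.5 and 39.5, and Zm.2376.2.S1_x_at was at background in both arrays. In the same cluster, though with no gene symbol, Zm.2376.3.S1_a_at had 1481 and 1158. Transcripts read as piip1 or its near relatives were thus present in the WT stem, and the difference was held by part of the cluster.

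Nor did the family as a whole run one way. Among 9 probe sets of cortical cell-delineating proteins, 4 were higher in D11 by 2-fold or more, the 3 members included, and 1 was at least 2-fold lower. For these counts a signal weaker than the brightest Tag or TrpnX control of its array was set to that control's value, and on that scale 5.47% of all maize probe sets were at least 2-fold higher and 3.14% at least 2-fold lower. The family member LOC100283104 had 1241 in D11 and 163 in WT, 7.63-fold higher. Probe set Zm.16311.1.A1_at (LOC100286204) had 19.9 and 349, and is 1 of the 5 found by the mirrored rule. The gene piip2 had 68.7 and 68.8. LOC100283104 and LOC100286204 are in the list only through the study's gene table, which was picked by fold change on these arrays, and the members were picked by the rule, so all 5 that passed 2-fold were chosen for it and the counts say nothing against the background. The family therefore holds transcripts on in D11 alone, on in WT alone and level in both.

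The second wall gene encodes a glycine-rich cell wall structural protein (LOC100280774, GRMZM2G109959), of a kind that strengthens walls, often in the vascular tissue. It was read by 2 probe sets of different clusters. Zm.2147.1.A1_s_at had 1004 in D11 and 8.76 in WT, at least 36.4-fold higher. Zm.17728.1.A1_at had 845 and 0.519, at least 30.6-fold higher, and its WT signal was the lowest of all members. Both readings put the transcript on in D11 and at background in WT. A further probe set of the first cluster, Zm.2147.1.A1_a_at, whose name differs from that of the member only in its suffix, was at background in both, with 7.16 and 8.85. So was Zm.2147.2.A1_at of that cluster, with 11.8 and 2.84.

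Other glycine-rich proteins on the array were mostly level. The gene grp1 had 8422 in D11 and 9607 in WT by Zm.10811.1.A1_s_at, and the gene GRP had 5198 and 4184. The 1 other that passed 2-fold went the opposite way: GRP5, read by Zm.10011.1.A1_at, was at background in D11 with 0.553 and had 93.8 in WT, at least 3.80-fold lower in D11. A second probe set of GRP5, Zm.10389.1.A1_at, had 23.8 and 31.4 and did not share this difference.

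A group of 3 members handles passage across membranes or between them. NIP2-2 (LOC541884), a NOD26-like intrinsic protein, is an aquaporin of the group that carries water and small uncharged solutes, and in grasses includes silicon channels. Its probe set Zm.601.1.A1_at had 778 in D11 and 22.1 in WT, at least 28.2-fold higher. The nearest relative by name, NIP2-3 (alias Lsi6), had 2324 and 70.7, 32.9-fold higher, but missed the rule because its WT signal was above the ceiling. NIP2-1 (Lsi1) had 259 and 197 by 1 probe set and 236 and 199 by another. NIP1-1 had 392 and 1047, 2.67-fold lower in D11, and NIP3-1 had 1079.7 and 1010.5. Of 7 NIP probe sets, 2 were at least 2-fold higher, the member chosen by the rule among them, and 1 was lower. Beside these stand 5.47% and 3.14% of all maize probe sets. The other 4 were within 2-fold, 1 of them, a further reading of NIP2-1 (Zm.1753.2.A1_at), at background in both arrays. The higher signals in D11 thus belonged to NIP2-2 and NIP2-3.

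The gene aux1 (LOC541998), annotated as an auxin transporter-like protein, belongs to the carriers that bring auxin into cells. It had 214 in D11 and 22.8 in WT, at least 7.76-fold higher. Of the other auxin genes read by name, the auxin-binding protein gene abp1 was level with 3905 and 4143, and abp4 had 392 and 174, 2.26-fold higher. With array medians made equal or with quantile normalization abp4 was under 2-fold.

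The plant SNARE protein NPSN11 (LOC100285150) and the syntaxin-related protein KNOLLE (GRMZM2G131525) are membrane fusion proteins. In Arabidopsis they act together at the cell plate, the new wall that parts daughter cells, and KNOLLE is made in dividing cells. The SNARE probe set Zm.13641.1.S1_at had 531 in D11 and 15.2 in WT, at least 19.2-fold higher. That of KNOLLE, Zm.4845.2.S1_at, had 189 and 17.3, at least 6.86-fold higher. The signal of KNOLLE was just under the median of the D11 array. The 2 further probe sets in the cluster of KNOLLE had 38.8 and 31.8 in D11 and were at background in WT. The first has no gene name. The study's gene table names the second, Zm.4845.1.S1_x_at, as alcohol dehydrogenase 1 (GRMZM2G442658), so the cluster holds the name of a different gene as well.

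Cell division control protein 2 (LOC100279288) is a cyclin-dependent kinase, the kind of enzyme that drives the cell cycle. Its probe set Zm.2615.1.S1_at had 167 in D11 and 21.2 in WT, at least 6.03-fold higher. A second gene of this kind, cdc2 (LOC542270), was level, with 1317 and 1382 by 1 probe set and 1182 and 1128 by the other. So 1 kinase of this kind was on in D11 alone, and the other was level.

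Other genes of the cell cycle were read by name. Of 11 probe sets of cyclins and cell cycle kinases, 5 were higher in D11 by 2-fold or more, the member included, and 1 was lower, and of 14 for DNA replication 11 were higher and none lower. Against these stand 5.47% and 3.14% of all maize probe sets. The 14 are not 14 separate genes: MCM6 and MCM7 were each read by more than 1 probe set, all of them among the 11 higher. CDC20, an activator of the complex that ends mitosis, had 281 in D11 and 39.3 in WT, 7.16-fold higher. The small subunit of ribonucleotide reductase, which makes the building blocks of DNA, had 545 and 91.3, 5.97-fold higher. The sliding clamp gene pcna1 had 526 and 95.6, 5.50-fold higher, and the helicase subunit gene MCM7 had 153 and 37.2, 4.11-fold higher. The origin recognition gene orc4 was level with 153 and 144, and cycD1 had 33.8 and 95.3, 2.82-fold lower.

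These counts were 10 of 14 for DNA replication with median centring, quantile normalization or lowess centring, and did not move for the cyclins. Of the 14, 3 have, and of the 11, 2 have, a name only from the study's gene table, whose transcripts were picked by their fold change on these same arrays, so they are not independent evidence. Of 5 markers of the shoot meristem, where cells divide, 2 were at least 2-fold higher in D11: lg3 with 788 and 303, and lg4b with 59.7 and 21.6. With median centring or quantile normalization 1 of the 5 was at least 2-fold higher. The gene fea2 had 174 and 90.3, under 2-fold, while kn1 and knox7 (454 and 488) were level. The 5 meristem probe sets were all above background in at least 1 array, as were 13669 of all 17555 maize probe sets. The signals of the 5 summed to 3238 in D11 and 2568 in WT. Their part in the cell cycle values was not tested.

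A further 3 members are regulators of transcription or development. Colored plant1 (GRMZM2G172795), also called b1, is a basic helix-loop-helix factor that turns on anthocyanin pigment genes in the plant body of maize together with a MYB partner. Its probe set Zm.82.1.S1_at had 268 in D11 and 21.1 in WT, at least 9.72-fold higher. The MYB partner genes c1 and pl1 were at background in both arrays, with 3.25 and 1.91 for pl1. Of 3 enzyme genes of the pathway, the chalcone synthase gene chs1 had 549 and 525, a2 had 126 and 114, and f3h was at background in D11 with 20.8 and had 30.8 in WT. Of the 12 probe sets of anthocyanin regulators and enzymes, the 1 at least 2-fold higher was that of Colored plant1, chosen by the rule. Over all maize probe sets 5.47% were at least 2-fold higher.

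The gene obf3.2 (LOC542407) encodes a bZIP factor that binds ocs elements, promoter sequences known from stress and defence genes. Its probe set Zm.129.1.S1_at had 224 in D11 and 18.2 in WT, at least 8.11-fold higher. A different cluster paired with the same symbol was above background in WT: Zm.128.1.S1_s_at had 165 and 39.6, 4.17-fold higher, and Zm.128.1.S1_at had 113 and 56.1, 2.02-fold higher. So obf3.2 was higher in D11 by all 3 readings, with the smallest under 2-fold after housekeeping scaling, lowess centring, median centring or quantile normalization, and was above background in WT by 2 of them. The 10 probe sets of other bZIP genes were within 2-fold or at background in both arrays, among them mlip15 with 2086 and 2352.

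The third was TLA1 (LOC542110), the transparent leaf area peptide, with 187 in D11 and 23.4 in WT, at least 6.79-fold higher. A protein kinase (LOC100281111) had 205 and 21.1, at least 7.43-fold higher. Subunit 8 of the COP9 signalosome (LOC100280950), a complex that controls ubiquitin ligases, had 170.3 and 27.1, at least 6.17-fold higher, with a WT signal just under the ceiling. A lipid binding protein (LOC100281217) had 155 and 24.2, at least 5.61-fold higher. TLA1, the COP9 subunit and the lipid binding protein were under the median of the D11 array, as were KNOLLE, cell division control protein 2 and ZmGA2ox8.

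In specialized metabolism the terpene synthase TPS9 (LOC542689), which the study's gene table calls terpene synthase 4, had 472 in D11 and 9.49 in WT, at least 17.1-fold higher. Terpene synthases make volatile and defensive terpenes. The gene tps6 had 121 and 8.85, at least 4.37-fold higher, and fell short of the D11 minimum. Probe sets of TPS4, stc1 and the kaurene synthase KS were at background in both arrays, so 2 of 5 terpene synthase readings were above background, the member TPS9 among them. Over all maize probe sets, 13669 of 17555 were above background in at least 1 array. The gibberellin 2-oxidase ZmGA2ox8 had 164 and 21.5, at least 5.93-fold higher, and bx1, an enzyme gene of benzoxazinoid synthesis, had 1355 and 16.4, at least 49.1-fold higher.

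Members also included 2 chitinases, enzymes that break down chitin of fungal walls. The gene LOC100274400, with the alias chitinase2 but called uncharacterized in the study's gene table, had 1684 in D11 and 8.85 in WT by Zm.847.1.S1_at, at least 61.0-fold higher. The gene chn1 (LOC542525), which that table names chitinase chem5, had 886 and 16.0 by Zm.1085.1.A1_a_at, at least 32.1-fold higher. The cluster of chn1 also held readings that were present in WT: Zm.1085.2.A1_a_at had 1099 and 1675, Zm.1085.4.A1_at had 638 and 965, and Zm.1085.2.A1_at had 1046 and 392. The 1 further chitinase read by name, chiA, had 657 and 37.8, 17.4-fold higher. The first 2 of these 3 readings of the cluster had more signal in WT.

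The 22 members with no described product stand for 21 genes and had a median of 243 in D11. The brightest, Zm.7768.1.A1_at (LOC100277980, GRMZM2G064818), had 3546 in D11 and 12.7 in WT, at least 128-fold higher. A probe set whose name differs only in its suffix, Zm.7768.1.A1_s_at, had 2689 and 3616. This pair thus gave opposite pictures of a transcript of the same name: on in D11 alone by the first, bright in both arrays and somewhat higher in WT by the second.

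Next came ZmAffx.1198.1.A1_at (LOC100276695) with 1241 in D11 and 12.2 in WT, at least 44.9-fold higher. Probe set ZmAffx.1198.1.S1_at, of the same cluster, had 53.5 and 4.17. Zm.2707.1.S1_at (LOC107546759) had 561 and 24.0, at least 20.3-fold higher. ZmAffx.1086.1.A1_at, for which no gene name was found, had 557 and 5.37, at least 20.2-fold higher. Its partner ZmAffx.1086.1.S1_at, named GRMZM2G161746 in the study's gene table, did not share this. It was at background in both arrays, with 24.3 and 1.10. Nothing is annotated for the products of these members.

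Zm.12124.1.A1_at (GRMZM2G124938) had 498 in D11 and 25.2 in WT, at least 18.04-fold higher. A second probe set of that gene from another cluster, Zm.4821.1.S1_at, had 314 and 35.4, so both readings were far higher in D11. Zm.4199.1.A1_at (LOC100278075) had 410.5 and 6.65, at least 14.9-fold higher, and Zm.2227.1.A1_at (LOC100191593) had 399.7 and 1.48, at least 14.5-fold higher. No other probe set was tied to either by name or cluster.

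Zm.5466.1.A1_at had 371 in D11 and 20.9 in WT, at least 13.4-fold higher. Its partner Zm.5466.1.A1_a_at had 142 and 36.9, again higher in D11 but above background in WT. Of 4 more probe sets of that cluster, Zm.5466.2.S1_a_at had 122.6 and 81.0, Zm.5466.2.S1_at 48.6 and 17.0, Zm.5466.3.A1_at 61.5 and 27.1, and Zm.5466.2.A1_at was at background in both. Zm.12951.1.S1_at (GRMZM2G468348) had 358 and 21.3, at least 13.0-fold higher. The gene GRMZM2G136970 was read by 2 members of different clusters, with 322 and 12.2 for Zm.7578.1.A1_at and 246 and 5.87 for Zm.17635.1.A1_s_at, at least 11.7-fold and 8.92-fold higher. The remaining members of this kind had D11 signals from 153 to 239.

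Among these, Zm.13915.1.S1_at, with no gene name, had 239 in D11 and 4.22 in WT, at least 8.67-fold higher. Its partner Zm.13915.1.A1_at was at background in both, with 2.09 and 0.538. A further 2 genes had other probe sets worth setting beside them. GRMZM2G117281 was a member through Zm.4164.1.A1_x_at, with 225 in D11 and 20.3 in WT, but other readings put it above background in WT. Zm.12387.1.S1_at had 6298 and 694, Zm.4164.3.A1_s_at 2472 and 127, and Zm.4164.3.A1_a_at 1685 and 41.7. All 3 were higher in D11. With the cluster number alone as a link, Zm.4164.2.A1_at had 135 and 154 and Zm.4164.3.A1_at had 43.9 and 31.6, both within 2-fold. For GRMZM2G141819 the member Zm.4713.1.A1_at had 227 and 23.9, and Zm.9913.1.A1_at had 121 and 13.9, so that gene was at background in WT by both.

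Over all members, 14 genes had 36 further probe sets, of which 28 were above background in at least 1 array. That is near the share over the whole array, 13669 of 17555 maize probe sets. Of the 28 further probe sets above background, 13 were at least 2-fold higher in D11, 15 were within 2-fold and none was at least 2-fold lower. The 13 became 9 with median centring or quantile normalization. Where a gene identifier or symbol tied the probe set to the member, 9 of the 12 above background were at least 2-fold higher. Where only the cluster number did, it was 4 of 16. Beside these stand 5.47% of all maize probe sets, a share that also counts those at background in both arrays, unlike the 12 and 16. The 9 are not 9 separate genes: several read GRMZM2G117281 and others obf3.2. Links by identifier, unlike those by symbol, came only from the study's gene table, whose entries were selected by their ratio on the same 2 arrays, and the first share is therefore not independent evidence. A cluster can hold related genes, so the second kind is the weaker link. For 7 genes with 9 members another probe set was above background in WT, and 34 members remained without them.

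**Figure D4:**
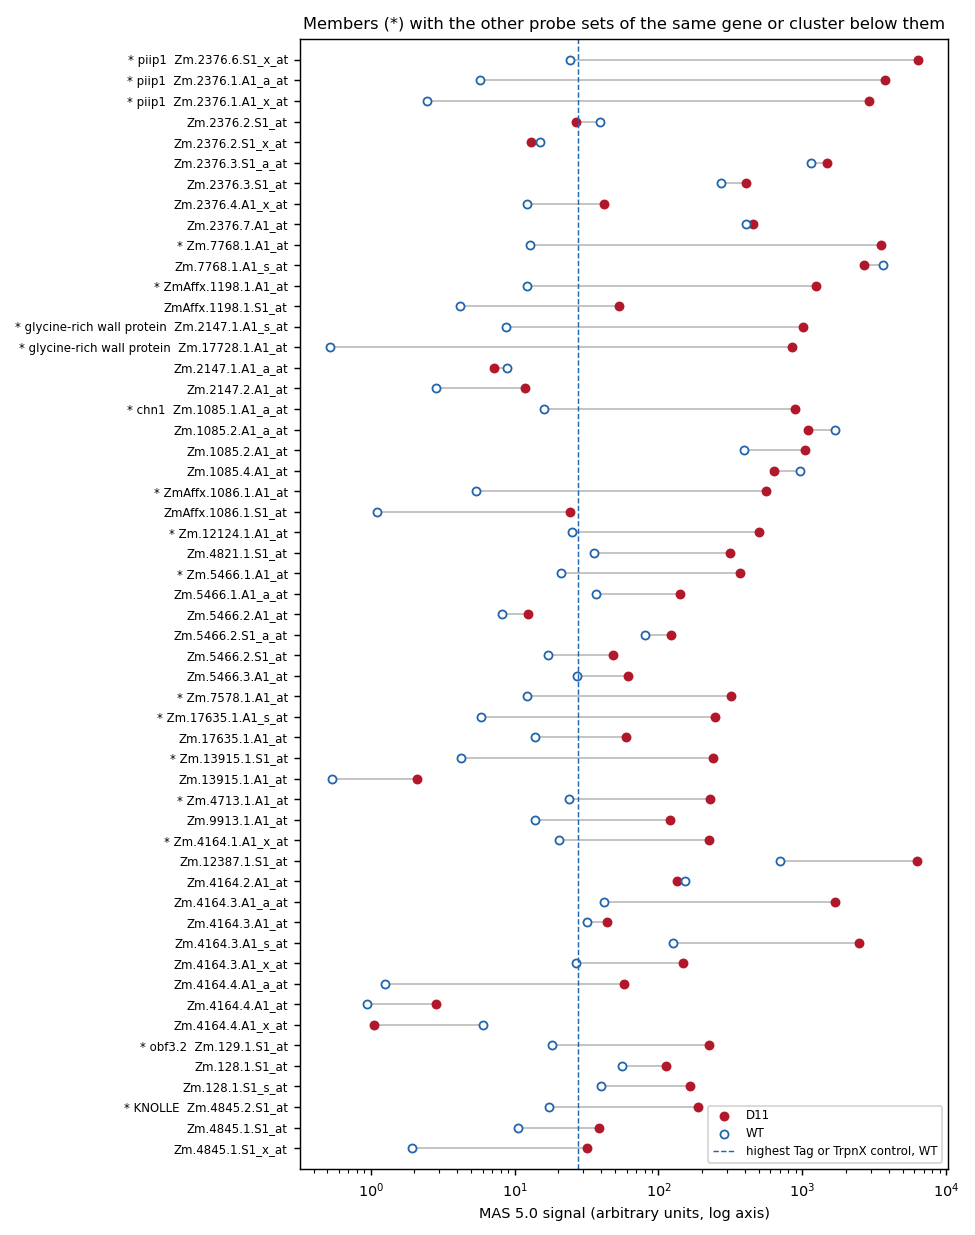
MAS 5.0 signal (log axis, arbitrary units) in D11 (filled) and WT (open), 1 array each, of members (asterisk) and, below each, the other probe sets tied to it by gene identifier, symbol or cluster number. The dashed line is the highest Tag or TrpnX control in WT (27.6). Zm.7768.1.A1_s_at and part of the piip1 and chn1 clusters lie far to the right in both arrays, while the partners of GRMZM2G117281 and GRMZM2G124938 are higher in D11.

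The members that could be placed are not neighbours in the genome. For 27 of the 39 genes a place in the gene order of the B73 assembly NAM-5.0 could be given. The fewest genes between any 2 of these were 177. The remaining genes had no place, so nothing can be said of their neighbours.

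The limits of the rule cut through a continuous range of signals. Just inside the D11 minimum were Zm.12900.1.S1_at with 153 and the lipid binding protein with 155, and just outside were Zm.4164.3.A1_x_at with 149 and Zm.6604.1.A1_at with 147. Just inside the WT ceiling were Zm.19226.1.A1_at with 27.5 and the COP9 subunit with 27.1. Just outside were Zm.2119.1.A1_at with 27.6194, against an exact ceiling of 27.6187, and 283 in D11, Zm.17534.2.S1_at with 28.2, Zm.3452.1.S1_at with 29.5 and 2421 in D11, and agmatine deiminase, an enzyme of polyamine synthesis, with 29.9 and 953 in D11. Bright D11 transcripts were thus left out by WT signals a few units over the ceiling.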

How the data were processed

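The deposited values are MAS 5.0 intensities on a linear scale. The authors corrected them for background, summarized them per probe set and scaled each array, with GeneSpring per the methods and MAS5 and Affymetrix Expression Console per the submitters' notes. They were used as they stand. Of 17734 probe sets, 113 AFFX and 66 reporter controls were set aside. For 2-fold counts, weaker signals were set to the brightest Tag or TrpnX control of their array (24.7 in D11, 27.6 in WT). Names came from the platform's probe-gene table for 9 members, and through the gene identifiers of the study's gene table and RefSeq (NAM-5.0) for 21 more, while 13 had no RefSeq match. The fold changes in the study's table were not used. Named in the text are all members with a described product, the 10 brightest without one, and relatives of members. Further members were named, chosen after their values were seen, for other probe sets of their genes or clusters or as neighbours of the limits. Members and lists were chosen with earlier results of these data known. Sequences were not used here. The counting was tested on simulated data. Python 3.11.15, numpy 2.4.6, pandas 2.3.3 and statsmodels 0.14.6 were used. Other scalings, minima, ceilings and subsets were tried.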

Additional observations from a re-analysis of the deposited data

Results flagged for a closer look

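The 66 reporter control probe sets take no part in the comparison. One of them had 8962 in D11 and 9554 in WT, far above the Tag and TrpnX controls in both arrays. Another had 29.05 in D11, above the highest Tag or TrpnX control of that array (24.7), and 8.80 in WT. The other reporter controls were at or below the control level of each array, and in WT the 65 dim ones reached 20.05.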

How the results depend on the processing

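No paired analysis was possible because there was 1 array per genotype, and for the same reason no replicate could be left out. Of the 43 members, 38 were kept with median centring, 41 with quantile normalization, 38 with lowess centring and 42 with housekeeping scaling. A count of 34 remained at a minimum at the D11 array median, 36 when probe sets able to bind several transcripts were left out, and 39 with each gene counted once. By construction the count moved with the limits, to 21 members (11 with a described product) at a minimum of 300, 118 (40) at 75, 10 (5) with the WT ceiling at the median control and 111 (43) at 2 times the highest control. With a ceiling at the highest reporter control, 20.05, added after seeing the data, 26 (11) remained. The median bound of 9.72-fold was 11.5 with median centring and 11.7 with lowess centring, where weak members drop out, 14.7 at the D11 array median, 28.2 at 300, 4.46 at 75, 78.4 and 5.03 with the 2 Tag and TrpnX ceilings, 20.2 with the reporter ceiling, 8.44 without shared probe sets, and 8.44 without genes seen in WT by another probe set (added after seeing the data). Over the 21 described members, whether or not they still met the rule, the lowest D11 signal over the WT ceiling was between 4.91-fold and 5.64-fold under the 4 other scalings, and the lipid binding protein, with the lowest, was a member with housekeeping scaling alone of these. Median centring moved the median log2 ratio of all maize probe sets from 0.03 to -0.17. The counts at least 2-fold higher and lower, 961 and 551, became 666 and 841 with median centring, 716 and 722 with quantile normalization, 833 and 622 with lowess centring and 878 and 599 with housekeeping scaling, so the excess of higher probe sets over all the array depends on the scaling. Signals near the control level have no order.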
